A study of Mus musculus with 6 samples.

Results

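Superoxide dismutases, catalase and metallothioneins form an antioxidant group outside the glutathione and thioredoxin systems. The genes Sod1, Sod2, Sod3, Cat, Mt1, Mt2, Mt3 and Mt4 were taken by gene symbol, and all 8 were measured, by 18 of the 45101 probe sets on the array. After 1 probe set was kept per gene they were 8 of 18193 genes. The arrays were hybridised with RNA from whole back skin of 6 female mice from a single litter, of mixed FVB/N/C57BL/6 background, killed on postnatal day 2.5. In 3 mice (K5cre-caNrf2, tg/tg in the protocol and tg/g in the genotype cell) Cre under the keratin 5 promoter switched on caNrf2, an always-active version of Nrf2, the transcription factor that drives many antioxidant genes. The other 3 mice (K5cre-wt, tg/wt) were the controls, and both groups carry K5cre. The titles, from which the groups were taken, call the 6 samples transgene or wildtype and add the word strong to each, whose meaning the labels do not give. Under treatment, the controls are also labelled CaNrf2, against their titles and genotype. The keratin 5 promoter is active in basal keratinocytes and parts of the hair follicle, so the dermal cells in the same RNA are not where the transgene was directed.

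Superoxide dismutases turn superoxide into hydrogen peroxide and oxygen, and catalase splits hydrogen peroxide into water and oxygen. Sod1 works with copper and zinc mainly in the cytosol, Sod2 with manganese in mitochondria, and Sod3 is a secreted copper-zinc enzyme, while catalase sits in peroxisomes. Metallothioneins are small, cysteine-rich proteins that bind zinc and copper, and their genes are switched on by zinc through the factor Mtf1, which reads metal response elements. Nrf2 with a small Maf partner binds antioxidant response elements. Mt1 and Mt2 are broadly expressed, Mt3 is best known from brain, and Mt4 from stratified squamous epithelium such as epidermis.

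Catalase was the gene of this group that rose in caNrf2 skin, to about double its control intensity. Sod1, Mt3 and Mt4 had smaller positive differences that did not pass the test, and Sod2, Sod3, Mt1 and Mt2 lay within 0.06 of no change on the log2 scale. The test was limma on log2 intensity, adjusted by Benjamini-Hochberg over all genes, with a call at an adjusted p under 0.05. It called 1 of the 8 genes higher and 0 lower. Of all genes, 2.26% were called higher, 1.39% lower and 3.65% in either direction. At an unadjusted p under 0.05 (limma) there were 3706 of all 18193 genes, the share to set beside such counts below. The groups of 3 arrays did not overlap for 3 of the 8 genes (Sod1, Cat and Mt3), which is 37.5% against 25.7% of all genes. The median log2 fold change of the 8 genes was 0.12, and that of all genes was -0.0041.

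**Figure D1:**
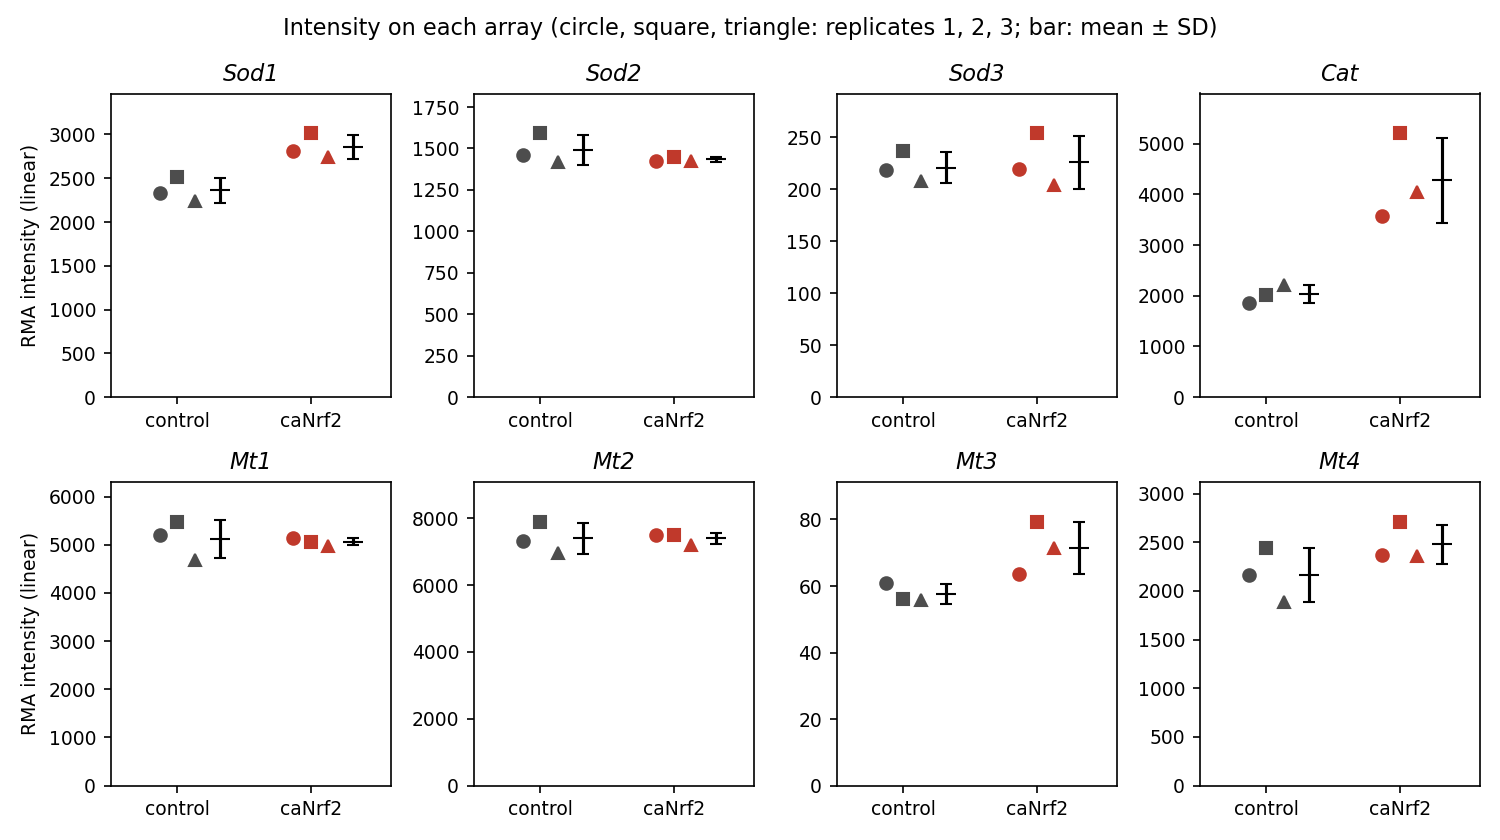
Linear RMA intensity of the brightest probe set of each of the 8 genes on the 3 control (grey) and 3 caNrf2 (red) arrays, with symbols for replicates 1, 2 and 3 and bars for mean ± SD; each panel has its own axis from 0. The caNrf2 arrays of Cat, from 3569 to 5207, lie clear of the controls, from 1853 to 2218, while the points of Mt1 and Mt2 overlap.

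The genes used to check the labels were both higher in caNrf2 skin. Nfe2l2, which encodes Nrf2, read 825, 726 and 774 on the control arrays and 1136, 1222 and 1242 on the caNrf2 arrays, which is 0.63 ± 0.07 higher on the log2 scale (± SE here and below; limma, adjusted p = 0.000736). With the mean over its probe sets the difference was 0.40 (limma, adjusted p = 0.00738). Whether these probe sets read the mouse's own gene or the transgene, itself a version of Nrf2, was not tested. Nqo1, a quinone reductase widely used as a readout of Nrf2, rose from 67.7 ± 4.36 to 1419 ± 99.3 (mean ± SD, n = 3), or by 4.39 ± 0.07 on the log2 scale (adjusted p = 2.23e-09). Across the arrays, Pearson correlations of log2 intensity were 0.9973 to 0.998 within groups and 0.9949 to 0.9962 between them. Both epidermal and dermal transcripts were bright, with control means of 12229 for Krt14, 17934 for Krt1 and 15024 for Col1a1. Transcripts of Y-linked genes, which female mice lack, gave a gauge of background: 20 probe sets had group means from 6.46 to 61.6, and 14 of them stayed under 20 in both groups.

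Cat is represented by 2 probe sets, and both rose. The brighter one, 1416429_a_at, read 1853, 2024 and 2218 on control arrays and 3569, 5207 and 4054 on caNrf2 arrays. The lowest caNrf2 array stood 1.61 times above the highest control. The group means were 2032 ± 183 and 4277 ± 841 (SD, n = 3), and their log2 difference was 1.06 ± 0.13 (95% interval 0.78 to 1.34; limma, adjusted p = 0.00135). On the linear scale that is a 2.08-fold difference, with an interval of 1.71-fold to 2.54-fold.

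The other Cat probe set, 1416430_at, spread less. It read 1493, 1639 and 1646 on control arrays and 3334, 3766 and 3674 on caNrf2 arrays, so its lowest caNrf2 array was 2.03 times its highest control. In a fit over all 45037 probe sets that are not array controls, of which 1.68% were called, its log2 fold change was 1.17 ± 0.07 (limma, adjusted p = 2.13e-05). Only the Cat probe sets were called among the 18 of the group. Among the 412 genes called higher, Cat held place 58 by log2 fold change, and 61 of them had at least a 2-fold rise. The Cat call stood with each of the 6 arrays left out, at log2 fold changes from 0.91 to 1.18 and adjusted p from 0.000621 to 0.0102.

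**Figure D2:**
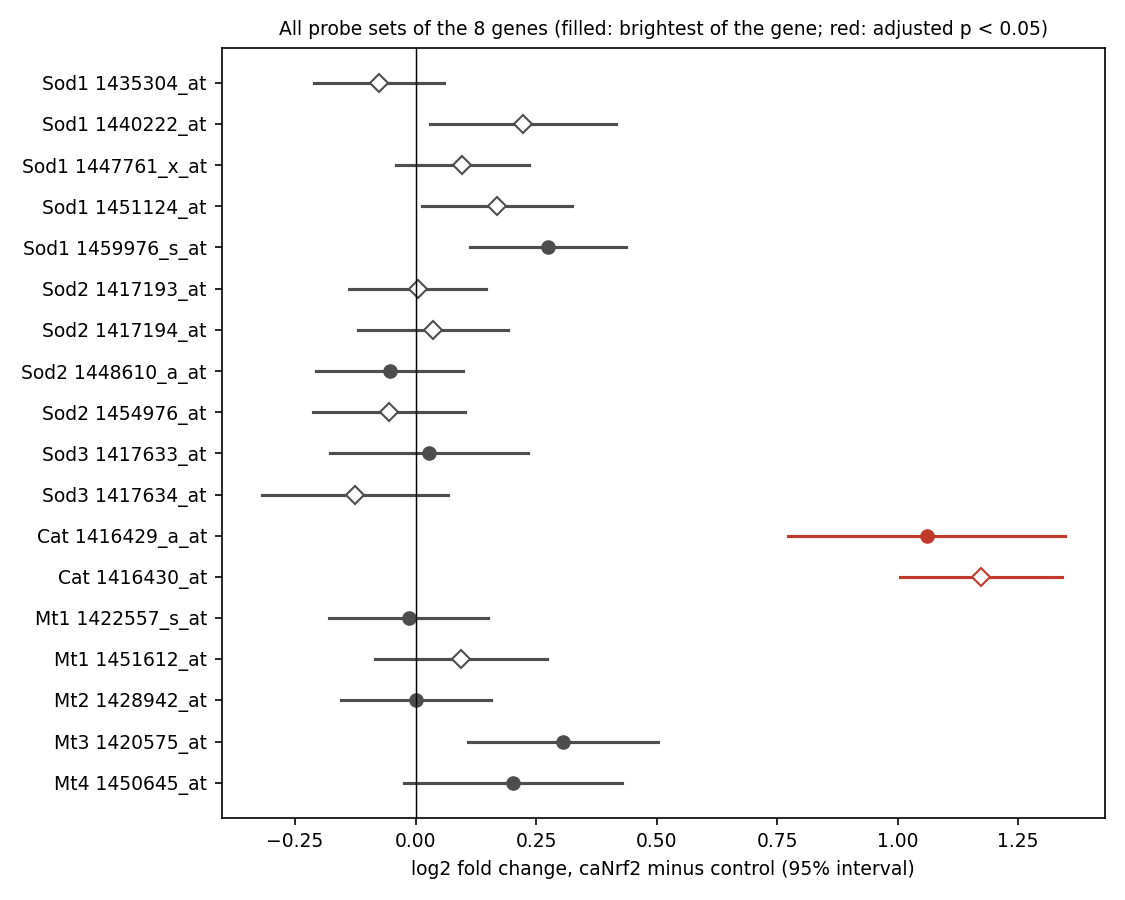
Log2 fold change (caNrf2 minus control) with 95% interval for each of the 18 probe sets, from the limma fit over all probe sets; filled circles mark the brightest probe set of a gene and red marks an adjusted p under 0.05. The 2 Cat probe sets, at 1.06 and 1.17, lie apart from the other 16, whose estimates run from -0.13 to 0.31.

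Red blood cell precursors are rich in catalase, so erythroid genes were read beside it. Of 5 measured erythroid markers 0 were called (limma; 0 also at an unadjusted p under 0.05), and their summed intensity ran from 341 to 453 on control arrays and from 377 to 396 on caNrf2 arrays. Hba-a1, a haemoglobin chain, had means of 17.8 and 19.4, and Epb42 and Car1 had control means of 20.4 and 22.9, all within the range of the Y-linked probe sets. The count and the sum thus rest on Slc4a1 and Alas2, with control means of 146 and 186. Adipocytes also hold much catalase. Their 6 measured markers summed to 20939 to 22218 in control and 20753 to 22295 in caNrf2 skin, with Lep, the hormone leptin, as the 1 called gene, at -0.58 ± 0.07 on the log2 scale, a fall (adjusted p = 0.000946). In whole skin, more cells that hold a transcript and more transcript per cell cannot be told apart.

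The window upstream of the RefSeq start of Cat is shown because Cat is the gene that rose. It was searched on both strands for a core of the antioxidant response element, TGACNNNGC, and for cores of the metal response element, TGCACNC or TGCGCNC. Among 32851 RefSeq windows of the same 250 bases (GRCm38.p6), 10.2% held the first and 21.4% at least 1 of the others. The Cat window, chr2:103485154-103485403 on the minus strand, held none of them and is printed without capitals.
Cat: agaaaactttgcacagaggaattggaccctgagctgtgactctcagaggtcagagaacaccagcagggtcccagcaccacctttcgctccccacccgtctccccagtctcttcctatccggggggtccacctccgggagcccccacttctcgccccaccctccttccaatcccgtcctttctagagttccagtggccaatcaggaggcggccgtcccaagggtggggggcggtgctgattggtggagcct
The Nqo1 window of the same length held none either, although Nqo1 had a log2 fold change of 4.39, so the absence of these letters here says nothing of sites outside the window.

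Next to Cat on the RefSeq map lie Elf5, an epithelial transcription factor, and Abtb2. Elf5 fell, from 212 ± 24.2 to 149 ± 4.65 (SD, n = 3), which is -0.51 ± 0.08 in log2 units (limma, adjusted p = 0.0112). Abtb2 read 0.20 ± 0.09 on the same scale and was not called (adjusted p = 0.257). The Elf5 call was lost with the mean over its probe sets (-0.33; adjusted p = 0.0603). On either side of Cat, then, 1 gene fell and 1 was not called.

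Sod1 had the most probe sets, 5, and they did not give the same answer. The brightest, 1459976_s_at, read 2329, 2519 and 2237 on control arrays and 2808, 3016 and 2746 on caNrf2 arrays. All 3 caNrf2 arrays lay above all 3 controls, with the lowest caNrf2 array 1.09 times the highest control. The log2 fold change was 0.27 ± 0.07 (95% interval 0.12 to 0.43) and missed the threshold (limma, adjusted p = 0.0605). It passed under 4 of the 7 other ways of fitting, at adjusted p = 0.00925 with an intensity trend and robust variances, 0.033 with log2(intensity + 16), 0.0419 without dim probe sets and 0.0489 with the replicate number as a block. With the mean over all Sod1 probe sets the difference was 0.14 (adjusted p = 0.18). It was not called with any array left out (limma, adjusted p from 0.0542 to 0.186). In the fit over all probe sets 1459976_s_at had an adjusted p = 0.104.

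The second bright Sod1 probe set, 1451124_at, read 2151, 2181 and 1936 in control and 2382, 2355 and 2299 in caNrf2 skin. This was again higher on every caNrf2 array, by 0.17 ± 0.07 on the log2 scale, and not called (adjusted p = 0.254 over all probe sets). The probe set 1435304_at went the other way, with 308, 310 and 308 in control and 288, 298 and 293 in caNrf2 skin, at -0.08 ± 0.06 (adjusted p = 0.54). In 1440222_at the control arrays read 76.4, 77.1 and 78.5 and the caNrf2 arrays 81.0, 88.9 and 102. The fifth, 1447761_x_at, read at most 7.69 on any array, at the bottom of the background range. Thus 4 probe sets of Sod1 had all caNrf2 arrays above the controls and 1 had all below, with 0 of 5 called. At the level of all probe sets, 23% had groups that did not overlap, against 8 of the 18 of this group.

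The Sod1 window is shown because it holds the antioxidant response element core, in capitals, 56 bases upstream of the RefSeq start and on the minus strand. It lies at chr16:90220512-90220761 on the plus strand (GRCm38.p6) and holds no metal response element core.
Sod1: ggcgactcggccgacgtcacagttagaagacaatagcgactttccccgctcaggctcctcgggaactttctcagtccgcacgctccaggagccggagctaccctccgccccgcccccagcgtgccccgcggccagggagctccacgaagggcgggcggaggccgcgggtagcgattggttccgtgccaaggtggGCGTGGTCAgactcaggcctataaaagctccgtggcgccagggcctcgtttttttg

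Sod2, the mitochondrial enzyme, was measured by 4 probe sets, all with overlapping groups. The brightest, 1448610_a_at, read 1462, 1593 and 1416 on control arrays and 1425, 1452 and 1426 on caNrf2 arrays. Every caNrf2 array thus lay inside the control range. Its log2 fold change was -0.05 ± 0.06 (95% interval -0.19 to 0.09; limma, adjusted p = 0.674), an interval that holds falls to 0.874-fold and rises to 1.06-fold. Across the 4 probe sets the estimates ran from -0.05 to 0.04.

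Sod3, the secreted enzyme, gave 218, 237 and 207 on control arrays and 220, 254 and 204 on caNrf2 arrays with its brighter probe set, 1417633_at. The caNrf2 arrays held both the highest and the lowest of the 6 values. The log2 fold change was 0.03 ± 0.09 (95% interval -0.17 to 0.23; limma, adjusted p = 0.889). Its other probe set, 1417634_at, read 165, 141 and 132 in control and 137, 133 and 129 in caNrf2 skin, at -0.13 ± 0.09 (adjusted p = 0.475), so the 2 probe sets differed in sign. Sod3 is made by cells of the vessel wall and connective tissue. Of 7 fibroblast markers and 6 smooth muscle and pericyte markers 0 were called (limma; 0 and 1 at an unadjusted p under 0.05), and all 13 had a negative log2 fold change. Their summed intensities did not overlap between the groups: fibroblast markers ran from 74140 to 76922 in control and from 71703 to 73568 in caNrf2 skin, and smooth muscle markers from 8821 to 8883 and from 8528 to 8678. The part of this small difference in the Sod3 value was not tested.

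Mt1 and Mt2 were bright in both groups and did not differ beyond the spread of the arrays. Mt1 (1422557_s_at) read 5197, 5482 and 4687 on control arrays and 5133, 5066 and 4984 on caNrf2 arrays. Mt2 (1428942_at) read 7330, 7896 and 6960 on control arrays and 7503, 7484 and 7191 on caNrf2 arrays. In both genes the caNrf2 arrays lay inside the range of the controls. The log2 fold changes were -0.01 ± 0.07 for Mt1 (95% interval -0.17 to 0.14; limma, adjusted p = 0.931) and 0.00 ± 0.06 for Mt2 (-0.14 to 0.15; adjusted p = 0.995). On the linear scale the intervals ran from 0.889-fold to 1.10-fold for Mt1 and from 0.905-fold to 1.11-fold for Mt2, and a rise of the size seen for Cat lies far outside both.

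The log2 ratio of Mt1 to Mt2 within an array, whose change but not its level can be read, was -0.53 ± 0.04 in control and -0.55 ± 0.02 in caNrf2 skin (SD, n = 3). The difference of -0.02 had an exact two-sided permutation p = 0.6, where 0.1 is the smallest that 3 against 3 arrays allow. A second, dim Mt1 probe set, 1451612_at, read 85.2, 86.1 and 80.8 in control and 80.5, 96.0 and 93.3 in caNrf2 skin, at 0.09 ± 0.08 (adjusted p = 0.57 over all probe sets). Whether the bright Mt1 probe set also detects other metallothioneins was not tested.

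The Mt2 window is shown because it is the one among the metallothioneins with both kinds of core. It held 3 metal response element cores, 223, 128 and 50 bases upstream of the RefSeq start, and 1 antioxidant response element core 79 bases upstream, all in capitals and with no overlap. Of all windows, 1.26% held at least 3 metal response element cores. It lies at chr8:94172368-94172617 on the plus strand (GRCm38.p6).
Mt2: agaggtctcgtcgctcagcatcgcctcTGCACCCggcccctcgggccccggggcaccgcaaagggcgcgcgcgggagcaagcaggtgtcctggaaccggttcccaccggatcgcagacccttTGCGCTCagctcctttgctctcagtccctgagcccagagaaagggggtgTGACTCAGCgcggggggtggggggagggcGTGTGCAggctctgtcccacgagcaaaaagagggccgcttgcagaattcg
The windows of Mt1 and Mt4 each held 1 metal response element core, and those of Mt3 and Sod2 held neither kind. The Mt1 window, chr8:94178839-94179088, was placed differently: it runs past the gene start on the RefSeq map, 94178883, and into the gene. The windows of Mt2, Mt3 and Mt4 end just before their gene starts, so the Mt1 count cannot be set directly against theirs. Mt2, with a log2 fold change of 0.00, had the antioxidant core in its window and Cat, with 1.06, did not. The part of these cores in either value was not tested.

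Mt3 and Mt4, the members with narrower expression, had positive differences that were not called. Mt4 (1450645_at) read 2159, 2446 and 1883 on control arrays and 2371, 2712 and 2358 on caNrf2 arrays. The groups overlapped, since control replicate 2 lay above 2 of the caNrf2 arrays. The log2 fold change was 0.20 ± 0.10 (95% interval -0.02 to 0.42; limma, adjusted p = 0.28). Suprabasal keratinocytes, in which Mt4 is known to be expressed, showed 0 of 9 markers higher and 1 lower. That gene was Ivl, an envelope precursor, which fell, at -0.55 ± 0.08 (adjusted p = 0.0043). The summed intensity of these markers ran from 103630 to 106771 in control and from 105396 to 109813 in caNrf2 skin.

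Mt3 (1420575_at) was dim, with 61.0, 56.0 and 55.7 on control arrays and 63.5, 79.4 and 71.4 on caNrf2 arrays. All caNrf2 arrays lay above the controls, the lowest by 1.04 times. The log2 fold change was 0.31 ± 0.09 (95% interval 0.12 to 0.50; limma, adjusted p = 0.0877), and without caNrf2 replicate 1 it was 0.39 and passed (adjusted p = 0.0441). The control mean of 57.6 lay inside the range of the Y-linked probe sets, whose highest group mean was 61.6, so how much of this signal is Mt3 transcript was not tested. Among markers of Schwann cells and neurons, where Mt3 is better known, 1 of 5 was higher. It was Uchl1, a ubiquitin hydrolase, at 0.92 ± 0.11 (adjusted p = 0.00176), and the summed intensity of the list ran from 694 to 768 in control and from 755 to 841 in caNrf2 skin. The other 4, among them Sox10, Tubb3 and Snap25, were not called. At an unadjusted p under 0.05 (limma) there were 2 of the 5, Uchl1 and Snap25. Snap25, at 0.23 ± 0.08, had means of 7.83 in control and 9.15 in caNrf2 skin, within the Y-linked range.

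The metallothionein genes lie side by side in the order Mt4, Mt3, Mt2 and Mt1, between Bbs2 and Nup93. These flanking genes were not called either, at -0.08 ± 0.07 for Bbs2 (limma, adjusted p = 0.534) and -0.04 ± 0.06 for Nup93 (adjusted p = 0.726).

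Many of these genes ordered the arrays of a group alike, an order noticed after the values were seen. In Sod1, Sod2, Sod3, Mt1, Mt2 and Mt4, control replicate 2 was the highest control and control replicate 3 the lowest. These are 6 of 8 genes, or 75%, while 24.7% of all genes and 28.4% of the 4549 brightest had this order. In these 6 genes the log2 deviation from the control mean ran from 0.09 to 0.19 on control replicate 2 and from -0.19 to -0.07 on control replicate 3. Cat and Mt3 did not follow it: control replicate 3 was the highest control for Cat, and control replicate 1 for Mt3. Among caNrf2 arrays, replicate 2 was the highest for all but Mt1 and Mt2, with Cat 0.30 above its group mean.

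**Figure D3:**
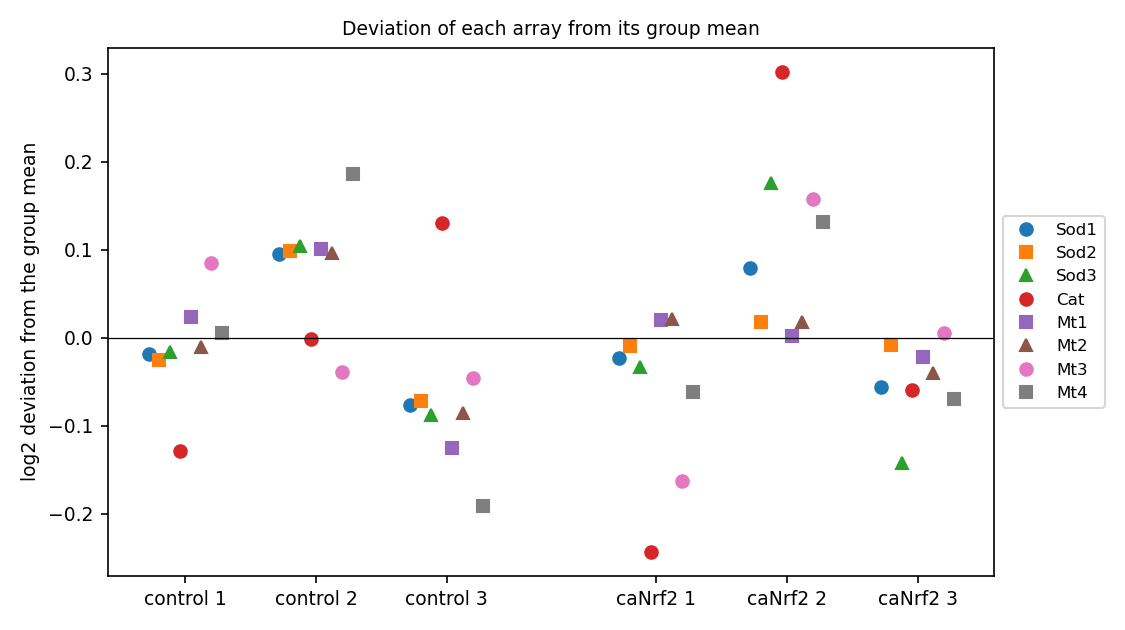
Log2 deviation of each array from the mean of its group for the 8 genes, with a colour and symbol per gene, slightly offset along the axis. On control replicate 2 the Sod genes, Mt1, Mt2 and Mt4 lie above 0 and on control replicate 3 below it, and Cat is the highest point on caNrf2 replicate 2, at 0.30.

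Likeness of pattern was measured as Pearson's r of log2 intensity over the 6 arrays, among 12371 genes with a mean log2 intensity of at least 6, as a description only. The genes most like Cat were Trmt1 (0.998), Popdc3 (0.997) and Tmem229b (0.997), of which Tmem229b was called higher, by 0.40 on the log2 scale (limma, adjusted p = 0.00982). Those most like Mt1 were Alg12 (0.997), Tomm40 (0.993) and Timm10b (0.989), and those most like Mt2 were Idnk (0.995), Hmgxb3 (0.992) and Timm8b (0.991). None of these 6 was called. The 6 points of each correlation are the same arrays, 3 from each group.

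Genes that supply copper to Sod1 and Sod3 were read next. Of 9 measured, 1 was higher, 0 were lower and 8 were not called, with a median of -0.02. The higher gene was the copper pump Atp7b, at 0.42 ± 0.08 (limma, adjusted p = 0.0273), but its means of 21.2 and 28.5 lay within the Y-linked range, and leaving out any array but caNrf2 replicate 3 ended the call (adjusted p up to 0.099). With the mean over its probe sets the difference was 0.20 (adjusted p = 0.231). Ccs, the chaperone that loads copper into Sod1, read 576, 583 and 497 on control arrays and 548, 551 and 529 on caNrf2 arrays, inside the control range (-0.02 ± 0.07; adjusted p = 0.903). The log2 ratio of Sod1 to Ccs was 2.10 ± 0.08 in control and 2.40 ± 0.05 in caNrf2 skin (SD, n = 3). It was higher on all 3 caNrf2 arrays (difference 0.30; exact two-sided permutation p = 0.1, the smallest possible), and the difference was 0.16 with the mean over all probe sets of each gene.

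Zinc transporters were read together with Mtf1, the metallothionein regulator that only some of them share. Of 21 measured genes, the zinc transporters and Mtf1, 0 were higher, 1 was lower and 20 were not called. Their median was -0.05, with 16 negative and 5 positive, against 9354 negative and 8839 positive among all genes. At an unadjusted p under 0.05 there were 6 of the 21, against 3706 of all 18193 genes. The groups did not overlap for 6 of the 21, or 28.6% against 25.7% of all genes, and in all 6 the caNrf2 arrays were the lower. Slc39a8, a zinc and manganese importer, had the largest difference (-0.29 ± 0.08; adjusted p = 0.0808), was not called, and was chosen after its values were seen. Mtf1 itself was not called (-0.07 ± 0.06; limma, adjusted p = 0.567). The lower gene was Slc39a14, an importer of zinc and manganese, with 393, 360 and 346 on control arrays and 298, 302 and 304 on caNrf2 arrays. Its log2 fold change was -0.28 ± 0.06 (adjusted p = 0.0469), and leaving out any 1 of the 6 arrays ended the call (adjusted p from 0.0517 to 0.17). With the mean over its probe sets it was -0.14 (adjusted p = 0.192). The zinc exporter Slc30a1, a textbook target of Mtf1 like Mt1 and Mt2, read 3688, 3535 and 3342 in control and 3346, 2742 and 3069 in caNrf2 skin, and was not called (-0.21 ± 0.08; adjusted p = 0.188). Slc30a1 was chosen after its values were seen.

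Cat works in peroxisomes, and the rest of that organelle was mostly not called. Of 15 measured genes of peroxisome assembly and import 0 were called (limma; 1 at an unadjusted p under 0.05), with a median of -0.02, and Pex11a, a peroxisome division factor, had the smallest p (-0.20 ± 0.06; adjusted p = 0.126). Of 8 peroxisomal oxidases, which make hydrogen peroxide, 1 was higher. It was Acox2, the oxidase of branched-chain fatty acids and bile acid precursors, which read 229, 231 and 202 on control arrays and 510, 528 and 533 on caNrf2 arrays. Its log2 fold change of 1.25 ± 0.07 (adjusted p = 4.84e-06) stood with each array left out (1.19 to 1.28). Acox2 thus rose beside Cat, while the other 7 oxidases had estimates of at most 0.15.

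Enzymes that make superoxide or peroxide, NADPH oxidases with their subunits and xanthine dehydrogenase, had 0 of 10 called (limma; 3 at an unadjusted p under 0.05). Ncf1, a subunit of the phagocyte oxidase, came nearest at 0.35 ± 0.08 (adjusted p = 0.0507). It passed in 4 of 7 other ways of fitting (lowest adjusted p = 0.0226) and without control replicate 1 (0.0404). Of 8 measured peroxiredoxins, glutathione peroxidases and mitochondrial partners in the list of other peroxide removal, 0 were called, also at an unadjusted p under 0.05, with a median of 0.01 and estimates of at most 0.08. Prdx1, Prdx5 and Prdx6, also on that list, had no probe set with a single symbol and are not analysed here. The 8 measured genes were Gpx1, Gpx4, Prdx2, Prdx3, Prdx4, Txn2, Txnrd2 and Glrx2. The list does not hold every peroxide-removing enzyme, so its median speaks for these genes alone. Txn2, the mitochondrial thioredoxin, had the smallest p of these (0.08 ± 0.06; adjusted p = 0.485).

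**Figure D4:**
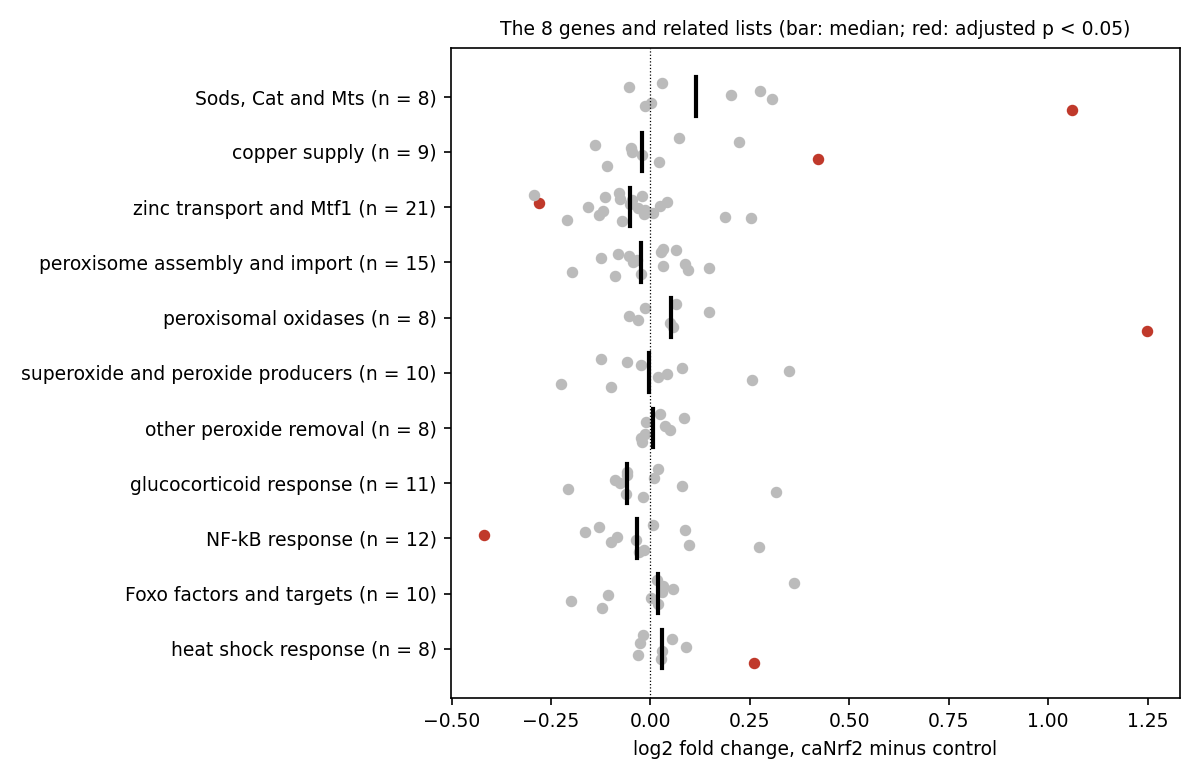
Log2 fold change (caNrf2 minus control) of the 8 genes and of each measured gene in the lists of related pathways, with a bar at each list's median and red for an adjusted p under 0.05. Cat and Acox2, at 1.06 and 1.25, are the points farthest from 0, and the medians of the pathway lists lie between -0.06 and 0.05.

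Signals known to induce the members were also read. The counts at an unadjusted p under 0.05 stand beside 3706 of all 18193 genes. Glucocorticoids induce Mt1 and Mt2. Of 11 genes of that response 0 were called (limma; 2 at an unadjusted p under 0.05), with Errfi1, a feedback inhibitor of the EGF receptor, having the smallest p (-0.21 ± 0.08; adjusted p = 0.17). NF-kB induces Sod2, and of 12 genes of its response 0 were higher and 1 was lower. That was the inhibitor Nfkbie, at -0.42 ± 0.08 (adjusted p = 0.0228), a call that ended with any array but caNrf2 replicate 2 or control replicate 3 left out (adjusted p up to 0.0902). Its means of 47.6 and 35.7 lay within the Y-linked range. Foxo factors are known to act on Sod2 and Cat. Of 10 Foxo factors and targets 0 were called (2 at an unadjusted p under 0.05), and Pdk4, a kinase that limits glucose oxidation, read 0.36 ± 0.13 (adjusted p = 0.177) but passed with the replicate number as a block. Of 8 heat shock genes 1 was higher, the co-chaperone Bag3, at 0.26 ± 0.06 (adjusted p = 0.0419), a call that ended with any of the 6 left out (adjusted p up to 0.133).

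Markers of other skin cells moved beside these results as follows. Of 6 melanocyte markers 0 were higher and 2 lower, Mitf (-0.36 ± 0.08; limma, adjusted p = 0.0456) and Mlana (-0.38 ± 0.09; adjusted p = 0.0463), and their summed intensity ran from 11554 to 12216 in control and from 9765 to 10798 in caNrf2 skin. All 6 had a negative difference and an unadjusted p under 0.05, and 5 had groups that did not overlap. Of all genes, 3706 of 18193 had an unadjusted p under 0.05 and 25.7% had groups that did not overlap. The Mitf call held with caNrf2 replicate 1 left out but not with any other array left out (adjusted p up to 0.13), and the Mlana call likewise held only with control replicate 3 left out (adjusted p up to 0.158). Of 7 basal keratinocyte markers Krt15 was lower (-0.30 ± 0.06; limma, adjusted p = 0.0209), and their sum ran from 36559 to 37447 in control and from 36410 to 36693 in caNrf2 skin. Itgb4 went the other way (0.33 ± 0.08; adjusted p = 0.0656) and was not called, and Krt14, at 0.10 ± 0.05 (adjusted p = 0.314), also had all caNrf2 arrays above the controls; both were chosen after their values were seen. Krt15 was not called with any array but caNrf2 replicate 2 or control replicate 3 left out (adjusted p up to 0.0824). In hair matrix and shaft, skeletal muscle, endothelium, macrophages, mast cells, neutrophils and T cells 0 markers were called. At an unadjusted p under 0.05 there were 4 of 5 in hair matrix and shaft, 1 each in skeletal muscle, endothelium, neutrophils and T cells, and 0 in macrophages and mast cells. The neutrophil gene was Ngp, with means of 41.1 in control and 48.4 in caNrf2 skin. The T cell gene was Cd3g, with 58.7 and 43.5, and all of these means lay within the Y-linked range. Cd3g was lower, while the other 4 T cell markers had positive differences. All 5 hair matrix and shaft markers had a negative difference, and 4 had groups that did not overlap, against 25.7% of all genes. The sums of hair matrix and shaft markers, from 9488 to 10992 in control and from 8551 to 8917 in caNrf2 skin, did not overlap. Nor did those of endothelium, from 3109 to 3168 and from 3247 to 3390. The part of these differences in the Cat result was not tested.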

How the data were processed

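Affymetrix arrays had been hybridised with biotinylated cRNA made from 2 ug of total RNA per mouse, per the labels' protocols, with 1 array per mouse. The authors deposited RMA intensities (per the submitters' processing notes; version not given in the sources used here), whose range shows that they are linear and not log values. RMA equalises the distribution of the arrays, so a shift of most genes in 1 direction cannot be seen. The number of arrays, 3 per group, limits the precision.

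Groups were taken from the sample titles. Gene symbols came from the platform annotation, updated through Entrez identifiers with a RefSeq table (GRCm38.p6; 34741 of 34945 single-symbol probe sets matched). The brightest probe set by mean log2 intensity stood for a gene. Of 237 list entries, 8 of them the members, 26 had no single-symbol probe set and are not analysed here. Log2 intensities were fitted with limma 3.58.1 (lmFit, eBayes; R 4.3.3), the model holding group alone. P-values are two-sided, adjusted by Benjamini-Hochberg. The fit was tested on simulated data. P-values set the group difference against the spread among littermates, with variances partly shared over genes by eBayes. They do not cover variation between litters. Named genes are the 8 members, Nfe2l2, Nqo1, up to 4 called genes per list (the one of smallest p where a pathway list had none), and the 3 genes most like Cat, Mt1 and Mt2; map neighbours, Mtf1, Ccs, tissue markers and a few genes at background were added. Members and lists were chosen with earlier results of these data known. Alternatives were each array left out, a replicate block, an intensity trend with robust variances, array weights, a pseudocount of 16, a further quantile normalization, keeping probe sets with an intensity of at least 32 on 3 or more arrays, and the mean over probe sets.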

Additional observations from a re-analysis of the deposited data

How the results depend on the processing

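Cat stayed called under every alternative run, at log2 fold changes from 0.91 to 1.18 with an array left out and from 1.04 to 1.12 otherwise. The call of Sod1 depended on the fit: 0.27 passed with the replicate block, with an intensity trend and robust variances, with log2(intensity + 16) and without dim probe sets, so that 2 of the 8 members were called in each of these fits, as they were without caNrf2 replicate 1, where Mt3 passed. With an array left out the member calls ran from 1 to 2 and Mt3 from 0.23 to 0.39. Sod1 was not called with any array left out (limma, adjusted p from 0.0542 to 0.186). Members near 0 changed sign without being called: Sod3 read -0.0016 with array weights and -0.0490 with the mean over probe sets, Mt1 0.0400 with that mean, and Mt2 -0.0056 with array weights and -0.0249 with a further quantile normalization. With an array left out Sod3 ran from -0.0597 to 0.0993, Mt1 from -0.0769 to 0.0361, Mt2 from -0.0417 to 0.0493 and Ccs from -0.0948 to 0.0205. The Sod2 probe sets 1417193_at and 1417194_at ran from -0.0264 to 0.0231 and from -0.0168 to 0.0719, the first at -0.0062 with array weights. Mtf1 read 0.0316 with the mean over probe sets and Ccs 0.0096 with quantile normalization. With the mean over probe sets, in which dim ones count like bright ones, the Mt1 to Mt2 difference was 0.0389 and the Sod1 to Ccs difference 0.16. The cause of the other changes was not tested.

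Over all genes, 500 were called lower with an intensity trend and robust variances, and with an array left out 226 to 316 were called higher and 72 to 196 lower. Of the pathway genes 5 were called, but 8 with an intensity trend and robust variances or with log2(intensity + 16), 3 with the mean over probe sets and 1 to 2 with an array left out. Of the marker genes 6 were called, but 14 with an intensity trend and robust variances, 10 without dim probe sets and 3 to 8 with an array left out. Whether replicate numbers pair the arrays is not settled: the deviations of same-numbered arrays correlated weakly, at 0.03, 0.13 and 0.09. The control arrays nearest to caNrf2 replicates 1, 2 and 3 were control replicates 3, 2 and 3. Among the members, the SE was smaller with the replicate block for all but Mt3. It went from 0.089 to 0.057 for Sod3 and from 0.098 to 0.063 for Mt4, against 0.085 to 0.089 for Mt3. With the replicate block 353 genes were called higher, Cat and Sod1 among them, and 236 lower. With 3 arrays a group, the 95% intervals of Sod1, Mt3 and Mt4 end at 0.43, 0.50 and 0.42 on the log2 scale, and a group mean under 61.6 lies within the range of the Y-linked probe sets.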
